A study of Mus musculus with 2 samples.

Results

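ETS transcription factors were followed in a mouse leukaemia of the T lineage named ALL65 (a primary T-ALL), as 10 genes of the family picked by name. They are Ets1, Fli1, Elf1 and Elf4, known mainly from lymphocytes, Ets2, Elf2 and Gabpa, active in many tissues, and Etv6, Erg and Spi1, best known from stem, progenitor or myeloid cells. All 10 were found by gene symbol among the 27179 genes of the count table, and 8 of them reached 5 CPM (counts scaled to a common library size) in the higher of both libraries. The grouping into lymphoid, broad and progenitor members was written from general knowledge. It is not sharp, since Fli1 is also a factor of blood progenitors.

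ETS proteins share a DNA-binding domain of the winged helix type that reads a short GGAA core. Most activate transcription, while a few such as Etv6 repress it, and many bind beside partners such as the Runx proteins. In T cells, Ets1 is known for its part in thymocyte development and at the T cell receptor enhancers. The gene of PU.1, Spi1, is switched off as progenitors commit to the T lineage.

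The leukaemia carries Vav-tTA, a transactivator driven by a promoter of blood cells, and TRE-GFP-shIkaros, a hairpin against Ikaros tied to green fluorescent protein. Doxycycline (Dox) stops the hairpin, and Ikaros made from the endogenous gene comes back. Splenocytes of recipients with leukaemia were sorted by flow cytometry, as GFPhigh cells of untreated mice and as GFPmid cells of mice given Dox for 3 days. Both groups hold the same single leukaemia with both transgenes, and the sort gate differs with the treatment, so treatment and gate cannot be told apart. The comparison asks how established leukaemia cells differ once Ikaros is back.

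Each group had 1 library, so no test was possible, no p-value is given, and no difference below has a replicate check. The series' design text names 3 mice per group and 2 sequencing runs of each RNA, and the way they became 1 column of counts is not stated. Counts summed to 7477988 without Dox and to 14457475 with Dox. Ikzf1, the gene the hairpin targets, stood at 262 CPM without Dox and 1455 CPM with Dox. T lineage markers were present, with 11 of 11 listed genes at 1 CPM or more in the mean of both libraries and a summed level of 8283 and 9189 CPM. They went both ways, with Cd4, Cd8a and Cd247 higher with Dox at log2 ratios of 0.83, 0.80 and 0.78. Cd3g at -0.28, Cd3d, Lck and Cd3e had counting intervals below 0. What part this has in the ratios of the ETS genes was not tested. Intervals in brackets are exact 95% counting intervals. They describe the error of counting alone, as does the limit of 3 counts given for a gene without any, and neither holds the spread between animals.

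Ets1 was the dominant member at the RNA level. It stood at 305 RPKM (300 to 311) without Dox and at 445 RPKM (440 to 449) with Dox, where RPKM is counts per kilobase of the deposited gene length on the CPM scale. Over the 10113 genes that reached 5 CPM in either library, this was rank 150 without Dox and rank 90 with Dox. Ets1 alone made up 54.0% of the summed RPKM of the 10 members without Dox and 58.3% with Dox.

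Elf1, an activator of T cell genes related to Elf2 and Elf4, came next at 74.5 RPKM (71.5 to 77.5) without Dox and 111 RPKM (108 to 113) with Dox. It lay 4.10-fold below Ets1 without Dox and 4.02-fold below it with Dox. The middle of the order was crowded in the untreated library. There Elf4 stood at 41.5 RPKM, Ets2 at 40.2 and Elf2 at 39.1, and the counting intervals of neighbours in this order overlapped.

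In the Dox library the same genes were spread apart, with Ets2 at 56.4 RPKM, Elf4 at 47.4 and Elf2 at 34.5. No neighbours among them overlapped in this library, where more counts also make the intervals narrower. Gabpa, the DNA-binding subunit of the GA-binding protein, stood at 27.7 and 31.3 RPKM in the untreated and the Dox library. At the low end of the expressed members, Fli1 stood at 19.3 RPKM and Etv6 at 18.0 without Dox, with overlapping intervals. With Dox they were 2.24-fold apart, at 26.2 and 11.7 RPKM. These levels depend on the deposited gene lengths, which need not match the transcripts in use.

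**Figure D1:**
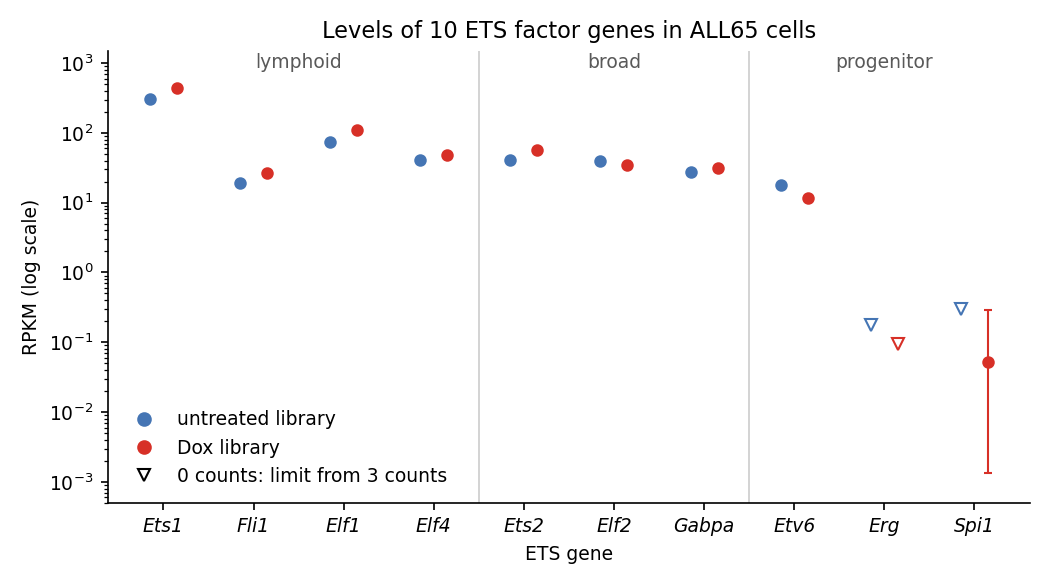
Level of each of the 10 ETS genes in RPKM (log scale) in the untreated library (blue) and the Dox library (red), with exact 95% counting intervals that are mostly smaller than the points. Open triangles mark the limit that 0 counts allow. Ets1 is the highest in both libraries, at 305 and 445 RPKM, and Erg and Spi1 lie below 0.4 RPKM.

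The remaining progenitor members were not detectable at this depth. Erg, a factor of blood stem cells and of endothelium, had 0 counts in both libraries, which allows up to 0.178 RPKM without Dox and 0.0953 RPKM with Dox. Spi1 had 0 counts in the untreated library, which allows up to 0.296 RPKM, and 1 count in the Dox library. No ratio is given for either gene. In bulk RNA, fewer cells of a type and less RNA per cell cannot be told apart.

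Genes that commonly accompany these factors in other cells were also near 0. Of 11 progenitor factors known to act with Erg and Fli1, such as Gata2, Tal1, Lyl1 and Lmo2, only Runx1 reached 1 CPM in the mean of both libraries, and the others held at most 4 counts in either library. Of 14 genes with described PU.1 sites, 3 reached that level. They were Itgam at 8.42 and 14.7 CPM, or 0.79 (0.39 to 1.23) as a log2 ratio, Kit at 2.37 and 3.02 CPM, and Csf2ra at 2.24 and 2.32 CPM, the last 2 with intervals that held 0.

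Markers of other cells that carry Spi1 or Erg gave little signal. Myeloid markers had 2 of 11 genes at 1 CPM or more, Lyz2 and Itgam, with a summed level of 17.0 CPM without Dox and 18.0 CPM with Dox, and S100a8, Mpo and Elane had 0 counts in both. The near-equal sums hide opposite differences, since Lyz2 stood at 7.24 CPM without Dox and 1.69 CPM with Dox, a log2 ratio of -1.99 (-2.86 to -1.38). B cell markers had 0 of 8 at that level, dendritic cell markers 0 of 6, megakaryocyte markers 1 of 7 (Gp1ba) and erythroid markers 2 of the 5 in the count table (Epor and Alas2). Endothelial markers had 2 of 8, Eng at -0.29 and Pecam1 at 0.37 on the log2 scale, which other blood cells also express, while Cdh5, Kdr and Emcn had 0 counts in both libraries. Stem cell markers had 2 of 6, Kit and Mecom. Mecom, a gene of blood stem cells, stood at 10.7 and 5.48 CPM, a log2 ratio of -0.94 (-1.43 to -0.49), and Cd34, Procr and Hlf had 0 counts in both.

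Between the libraries, the expressed members differed by modest amounts and in both directions. Of the 8 members past 5 CPM, 6 stood higher with Dox and 2 lower, each with a counting interval that left out 0 on the log2 scale. Over all genes past the same minimum, 26.9% had an interval above 0 and 23.8% one below 0, a measure that depends on how many counts a gene has. Their median log2 ratio of Dox over untreated was 0.32, beside 0.01 over all 10113 genes past the same minimum. At least 1.5-fold higher were 0 of the 8 members, beside 6.28% of all genes, and at least 1.5-fold lower was 1 member, beside 6.18%. No member reached 2-fold, which 2.21% of all genes did upward and 2.24% downward. A single gene among 8 says little beside these background shares.

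Ets1 had 11730 counts without Dox and 31998 with Dox, or 1543 and 2249 CPM. The log2 ratio was 0.54 (0.51 to 0.57), a level 1.46-fold higher with Dox, and 13.9% of all genes had a larger absolute ratio. Its many counts made this the most precise ratio of the family. Elf1 had 2387 and 6631 counts, 314 and 466 CPM, and the largest ratio among the members, 0.57 (0.50 to 0.64), or 1.48-fold higher.

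Ets2, a broadly expressed relative of Ets1 that the MAP kinase path phosphorylates, stood close to them. It had 1087 and 2854 counts, or 143 and 201 CPM. The log2 ratio was 0.49 (0.39 to 0.59). Fli1, with 453 and 1151 counts and 59.6 and 80.9 CPM, had a ratio of 0.44 (0.28 to 0.60). The ratios of Ets1, Elf1, Ets2 and Fli1 could not be told apart by counting error in any of their 6 pairs, although their levels in the untreated library ran from 19.3 to 305 RPKM.

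Elf4 and Gabpa stood higher by less. Elf4, known for its part in the quiescence of CD8 T cells, had 1842 and 3939 counts, or 242 and 277 CPM. Its ratio was 0.19 (0.11 to 0.27). Gabpa had 1050 and 2221 counts, or 138 and 156 CPM, for a ratio of 0.18 (0.07 to 0.28). About 50.2% of all genes had a larger absolute ratio than Elf4 and 53.4% a larger one than Gabpa, so both differences were of middling size. By signed ratio, 73.8% of all genes lay below Elf4 and 72.1% below Gabpa.

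Elf2 and Etv6 stood lower with Dox. Elf2 had 796 and 1313 counts, or 105 and 92.3 CPM. Its ratio was -0.18 (-0.31 to -0.05). Etv6, a repressor needed for blood stem cells and a tumour suppressor of human lymphoid leukaemia, had 759 and 924 counts and 99.9 and 64.95 CPM. Its ratio was -0.62 (-0.76 to -0.48), a level 1.54-fold lower with Dox, and 5.61% of all genes had a lower ratio. Etv6 was the only member past 1.5-fold, and the bound of its interval nearest to 0 did not reach that fold.

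**Figure D2:**
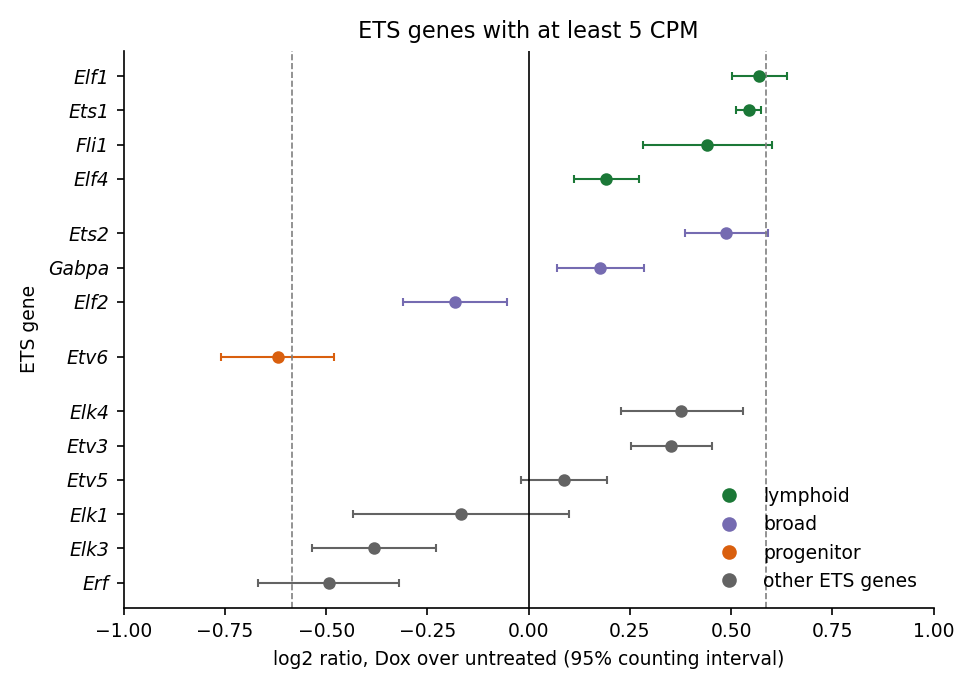
Log2 ratio of Dox over untreated with 95% counting intervals for the 8 expressed members, by class, and for 6 other ETS genes. Dashed lines mark 1.5-fold. Elf1, Ets1, Fli1 and Ets2 lie between 0.44 and 0.57, Elf4 and Gabpa near 0.2, and Etv6 at -0.62.

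By class, the 4 lymphoid members all stood higher, with ratios from 0.19 to 0.57 and a median of 0.49. The broad members went both ways, from -0.18 to 0.49, with a median of 0.18. The progenitor class rests on Etv6 alone, since Erg and Spi1 were not detectable. With all 3 genes kept, its median was 0, the value of Erg, which had 0 counts in both libraries. The summed RPKM of the lymphoid members was 440.3 without Dox and 629 with Dox, 1.43-fold higher. Ets1 alone gave 305 and 445 of these sums. The summed RPKM of the progenitor members was 18.0 and 11.8. Their share of the summed level of all 10 members, Ets1 included, was 3.19% without Dox and 1.54% with Dox. Without Ets1, the other 9 members of all classes summed to 260 and 318 RPKM, 1.22-fold higher with Dox. These classes share both libraries, and their difference was not tested over samples.

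A comparison of members with each other does not depend on how the libraries are scaled. For the 28 pairs of expressed members, the ratio of their ratios was taken with an exact conditional interval. The interval left out 1 for 21 pairs and held 1 for 7 pairs. Etv6 differed from the other 7 members beyond counting error in every pair, by 2.28-fold (2.05 to 2.54) against Elf1, 2.24-fold (2.03 to 2.48) against Ets1 and 1.35-fold (1.19 to 1.55) against Elf2.

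The Elf genes differed from each other. The ratio of Elf1 exceeded that of Elf2 by 1.68-fold (1.52 to 1.86) and that of Elf4 by 1.30-fold (1.21 to 1.40), and Elf4 exceeded Elf2 by 1.30-fold (1.17 to 1.44). Of the 7 pairs that counting error did not separate, 6 were those among Ets1, Elf1, Ets2 and Fli1 named above. The other was Elf4 with Gabpa, at 1.01-fold (0.921 to 1.11).

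**Figure D3:**
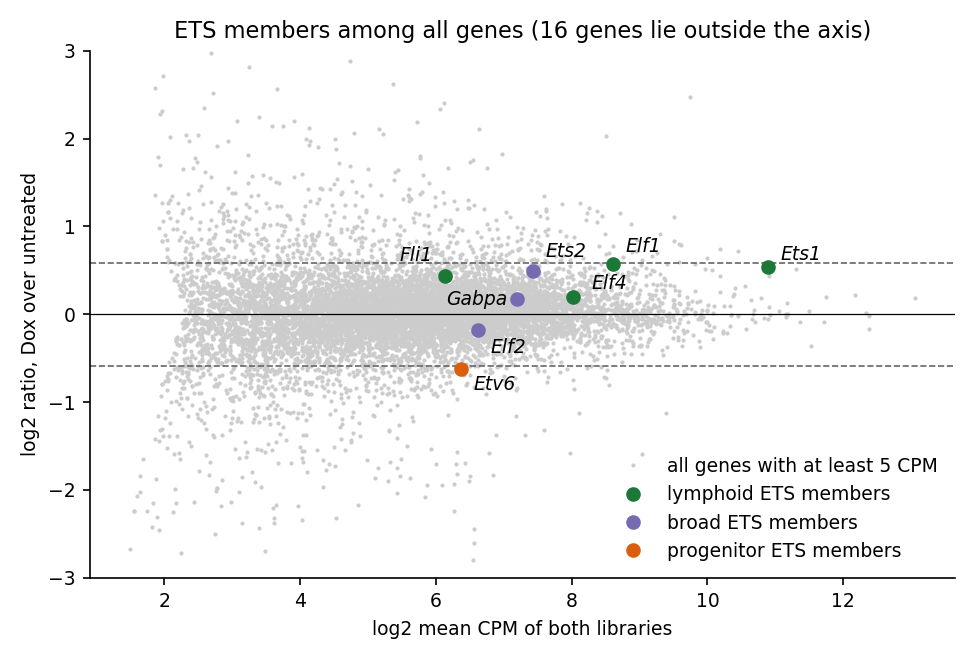
Log2 ratio of Dox over untreated against log2 mean CPM for all 10113 genes that reached 5 CPM in either library (grey) and the 8 expressed ETS members (coloured by class). Dashed lines mark 1.5-fold, and 16 genes lie beyond the vertical axis. Ets1 stands at the abundant end, where few genes lie as far from 0, and Etv6 lies just past the lower line.

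Some family members lie near each other in the mouse genome. In mm10, Fli1 (chromosome 9, 32422204 to 32543432) and Ets1 (32636241 to 32757820) are 92808 bases apart, and Erg (chromosome 16, 95359169 to 95586600) and Ets2 (95702407 to 95721049) are 115806 bases apart. Both Fli1 and Ets1 were expressed, and their ratios differed by 1.07-fold (0.959 to 1.20), an interval that holds 1. In the Erg and Ets2 pair, Erg had 0 counts while Ets2 stood at 40.2 and 56.4 RPKM.

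Of the annotated genes that overlap a member, 2 were in the count table. Wbp4 shares the start region of Elf1 and had a log2 ratio of -0.05 (-0.22 to 0.11), and Atp5j shares that of Gabpa and had one of -0.02 (-0.12 to 0.08). The strand setting of the counting is not stated, so reads in these short overlaps cannot be assigned to a strand.

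Promoter windows of RefSeq, on GRCm38.p6 (the assembly behind mm10), were matched by gene for 7 of the 10 members. Ets1, Fli1 and Spi1 had none, so their promoters were not searched. The 250 bases before a transcript start listed there are shown for Elf1 and Ets2, which stood higher by a like amount, and for Elf2 and Etv6, which stood lower. Capitals mark the ETS core GGAA on either strand, so that it reads TTCC on the lower strand. Elf1 and Elf2 have more than 1 such start. The one shown is nearest to the outer end of the gene and lies slightly inside it, so the window reaches into the gene.

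Elf1, chr14:79480944-79481193, plus strand: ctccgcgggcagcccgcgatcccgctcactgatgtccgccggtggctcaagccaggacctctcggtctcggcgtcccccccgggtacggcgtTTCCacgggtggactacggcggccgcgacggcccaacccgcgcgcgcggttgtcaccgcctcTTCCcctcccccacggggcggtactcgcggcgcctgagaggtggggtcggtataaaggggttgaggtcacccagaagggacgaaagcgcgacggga

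Ets2, chr16:95702157-95702406, plus strand: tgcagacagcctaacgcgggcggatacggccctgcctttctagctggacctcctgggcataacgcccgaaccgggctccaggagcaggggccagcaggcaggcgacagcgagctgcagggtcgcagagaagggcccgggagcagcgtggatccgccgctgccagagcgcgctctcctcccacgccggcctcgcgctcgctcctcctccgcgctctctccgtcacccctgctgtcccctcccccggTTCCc

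Elf2, chr3:51340645-51340894, minus strand: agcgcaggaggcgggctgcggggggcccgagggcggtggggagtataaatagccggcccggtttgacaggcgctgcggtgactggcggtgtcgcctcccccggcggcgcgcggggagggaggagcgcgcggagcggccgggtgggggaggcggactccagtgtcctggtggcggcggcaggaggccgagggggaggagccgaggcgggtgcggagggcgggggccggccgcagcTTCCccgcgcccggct

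Etv6, chr6:134035450-134035699, plus strand: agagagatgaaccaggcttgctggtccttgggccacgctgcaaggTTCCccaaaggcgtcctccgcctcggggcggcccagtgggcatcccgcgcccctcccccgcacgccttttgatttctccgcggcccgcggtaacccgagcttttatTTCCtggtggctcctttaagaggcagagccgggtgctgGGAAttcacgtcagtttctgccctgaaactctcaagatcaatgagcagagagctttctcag

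These windows held 2 matches of the core in Elf1, 1 in Ets2, 1 in Elf2 and 3 in Etv6. A match of GGAA was present in 93.4% of all 32526 distinct windows, with a median of 3 per window. The window of Gabpa held 5 matches and that of the first start of Elf4 held 6. The Gabpa window (84834874 to 84835123) lies mostly inside the annotated gene, which begins at 84834891. The second start of Elf2 held 6, while at least 90% of all windows held 5 or fewer. Those of Elf1 and Elf4 held 0 and 2, and the 3 Erg windows held 0, 4 and 2. The longer ETS site CCGGAAGT was found in none of the 12 member windows and in 2.90% of all windows. TGGGAA, a core bound by Ikaros that contains the ETS core, was found on either strand in 21.6% of all windows. Among the members it was in the Etv6 window, beginning 63 bases before the start, and in 1 of the 3 Erg windows. The windows of Elf1, Ets2 and Elf2 were rich in G and C, at 71.6%, 71.6% and 79.2%, and that of Etv6 was at 60.4%, beside a median of 52.4%. These are letters in short windows, and no binding was measured.

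The rest of the family added 16 genes, of which 6 reached 5 CPM. Elk4, a partner of serum response factor, stood higher with Dox, with 67.2 and 87.3 CPM and 0.38 (0.23 to 0.53) on the log2 scale. Etv3, a repressor, did so as well, with 154 and 196 CPM and 0.35 (0.25 to 0.45). Erf, a repressor regulated by MAP kinase, stood lower at 63.3 and 44.9 CPM and -0.49 (-0.67 to -0.32), as did Elk3, another partner of serum response factor, at 79.1 and 60.7 CPM and -0.38 (-0.53 to -0.23). The intervals of Etv5 at 0.09 (-0.02 to 0.19) and Elk1 at -0.17 (-0.43 to 0.10) held 0.

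None of these 6 reached 1.5-fold. Etv4 had 1 and 2 counts and Spic 4 and 6. The other 8, Etv1, Etv2, Elf3, Elf5, Ehf, Spib, Spdef and Fev, had 0 counts in both libraries. Over all 26 ETS genes, Ets1 held 43.9% of the summed RPKM without Dox and 49.5% with Dox.

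Among partners and cofactors of ETS proteins, the 2 largest differences were in Runx genes and went opposite ways. Of 17 listed genes 16 were measured, at 1 CPM or more in the mean of both libraries, with a median log2 ratio of 0.11. At that level, 1 was higher by 1.5-fold or more and 2 were lower by as much, beside 7.54% and 8.0% of all 11498 measured genes. Runx1, which binds next to Ets1 at T cell receptor enhancers, had 378 CPM without Dox and 174 CPM with Dox, a ratio of -1.12 (-1.20 to -1.04). Its relative Runx3 went in the opposite direction, from 75.8 to 160 CPM, a ratio of 1.07 (0.94 to 1.21). Cbfb, the shared non-DNA-binding subunit of both, was at 0.24 (0.17 to 0.30).

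Irf4, a partner of PU.1 at composite sites, was at 57.8 and 31.2 CPM and -0.88 (-1.08 to -0.69). The coactivator gene Crebbp was at 0.48 (0.34 to 0.62). The partner subunits of Gabpa lay near the ratio of Gabpa itself, with Gabpb1 at 0.09 (-0.03 to 0.20) and Gabpb2 at 0.13 (0.05 to 0.20). The corepressor genes Ncor1, Sin3a and Hdac3, through which Etv6 acts, were at 0.04, -0.02 and 0.01 with intervals that held 0.

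The MAP kinase path and its feedback genes, which act on Ets1, Ets2 and Etv6 by phosphorylation or on ETS repressors, had 13 of 14 genes measured and a median of 0.26. Of the 13, 2 were higher by 1.5-fold or more and 1 was lower by as much, beside 7.54% and 8.0% of all measured genes. Past 2-fold were 1 gene upward and 1 gene downward, beside 2.91% and 3.16% of all measured genes. Dusp5, a phosphatase for ERK, had 10.4 CPM without Dox and 23.0 CPM with Dox, a ratio of 1.13 (0.79 to 1.52). Spry2, a feedback inhibitor, had 16.2 and 5.41 CPM, a ratio of -1.55 (-2.01 to -1.16). Cic, a repressor of the Etv1, Etv4 and Etv5 genes, was at 0.63 (0.52 to 0.74) and Dusp6 at 0.56 (0.27 to 0.86). The feedback genes thus went in both directions.

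T cell genes with described ETS sites stood mostly higher with Dox. Of 17 listed genes 16 were measured. Past 1.5-fold were 8 of them upward and 1 downward, beside the 7.54% and 8.0% of all measured genes. Their median log2 ratio was 0.63, beside 0.01 over all measured genes. The list was written with earlier results of these data known, so neither value is independent evidence about ETS targets. Klf2, a quiescence factor described as a target of Elf4, had 42.8 CPM without Dox and 145 CPM with Dox, a ratio of 1.76 (1.59 to 1.94). Itgb2, the beta subunit of lymphocyte integrins, was at 1.11 (1.01 to 1.22), and Runx3, which is also among the partners, was the other gene past 2-fold at 5 CPM or more. Prf1, the perforin gene of cytotoxic cells, passed it with 3 and 35 counts.

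Il2ra, the interleukin 2 receptor alpha chain gene with an Elf1 site in its enhancer, went the other way, with 345 and 13 counts and a ratio of -5.38 (-6.56 to -4.84). Elf1 itself stood higher. This list was drawn from the literature on many factors, and its members have other regulators, so that its direction was not tested against the ETS levels. Among the genes described for GABP, 10 nuclear genes of mitochondria, 0 were higher by 1.5-fold or more and 1 was lower by as much, beside 7.54% and 8.0% of all measured genes, and the median was -0.04. Atp5b, an ATP synthase subunit, was at -0.09 (-0.11 to -0.06), and Tfb2m, Cox6a1 and Cox7c at -0.21, 0.09 and 0.10, with intervals that held 0. The gene past 1.5-fold was Sdhd, with 37 and 45 counts and an interval of -1.28 to 0.05.

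**Figure D4:**
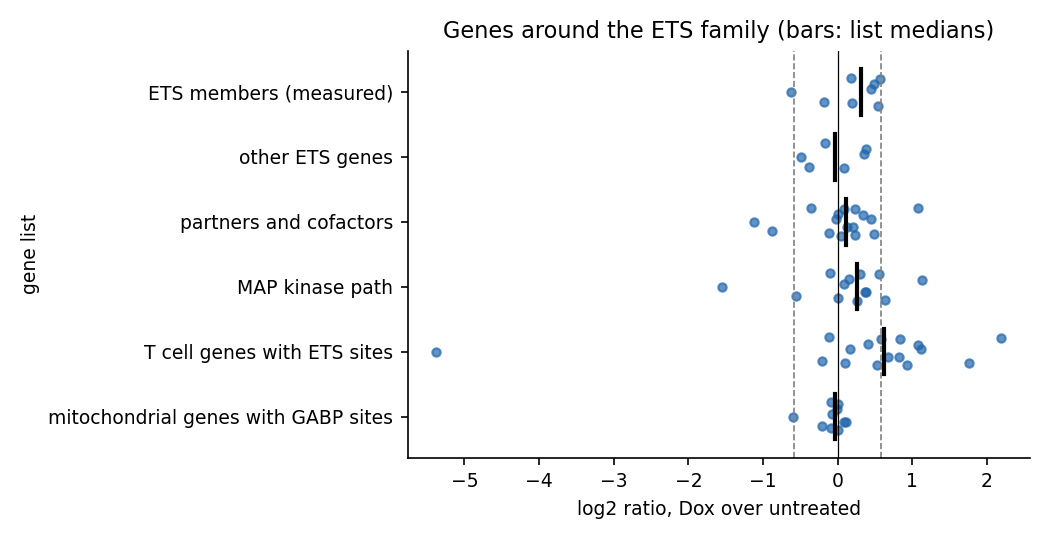
Log2 ratio of Dox over untreated for measured genes of the ETS family and of 4 lists around it, 1 point per gene, with thick bars at the list medians and dashed lines at 1.5-fold. The ETS members lie between -0.62 and 0.57, and the T cell genes with ETS sites range from -5.38 to 2.19 with a median of 0.63.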

How the data were processed

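The authors deposited counts, whole numbers of reads per Entrez gene without normalization, for 1 library per group, beside a gene length. Per the submitters' processing notes, CASAVA 1.8.2 and featureCounts were used with mm10. No source used here names the aligner, annotation or strand setting. Symbols and positions came from a RefSeq table of GRCm38.p6, which named 25275 of 27179 genes. The series table and the library files differed in 0 values.

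Libraries were scaled with TMM in edgeR 4.0.16 (R 4.3.3), and CPM and RPKM use the scaled sizes. Log2 ratios of Dox over untreated have a prior count of 2, scaled to library size, which pulls low genes towards 0. Intervals are exact at 95% and leave out the prior count: Clopper-Pearson for ratios, Poisson for levels, conditional for pairs of genes. Called means past a stated fold at the stated CPM minimum. Scripts were tested on simulated data. Python 3.11.15, scipy 1.17.1 and pandas 2.3.3 were used.

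The members and gene lists were chosen with earlier results of these data known. All members and other ETS genes are named. From other lists, up to 4 genes with the largest absolute ratio at 5 CPM or more are named, with the subunits Gabpb1, Gabpb2 and Cbfb. Further names were chosen after their values were seen. Alternatives were scaling by DESeq2 1.42.0 or by total counts, a prior count of 0.5 or 5, other CPM minimums, the interval bound nearest to 0, and another class for Fli1.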

Additional observations from a re-analysis of the deposited data

How the results depend on the processing

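Of 96 values recomputed under 10 alternatives, 89 kept their call and stayed within their counting interval or, for class medians, within 0.05. Of the 40 member ratios among them, 0 changed sign. Counts of members and summed levels cannot change sign, and the progenitor median of 0 could not be scored for it. With total counts the log2 ratio of Ets1 was 0.50, and the summed RPKM of the members was 575 without Dox and 750.4 with Dox. With the interval bound nearest to 0, the number of members at least 1.5-fold lower was 0, since Etv6 dropped out. With Fli1 moved to the progenitor members, the lymphoid median was 0.54 and the progenitor median 0.22. The latter lies midway between Fli1 at 0.44 and Erg, whose ratio of 0 comes from 0 counts in both libraries. With only members past 5 CPM, the progenitor median was -0.62, that of Etv6 alone. Over the alternatives, the ratio of Etv6 ran from -0.67 to -0.62. Removing the trend with gene length was added after seeing the data and left all member ratios within their intervals.

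No paired analysis was possible because each group has 1 library. Depth limits Erg and Spi1, whose levels lie at or below the limit of 3 counts, and Fli1 has the widest interval of the expressed members. Treatment, sort gate and library cannot be told apart.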

Other observations

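Among the 14 ETS genes with at least 5 CPM, 4 are known mainly as repressors, a grouping made after their values were seen. Etv6, Erf and Elk3 stood lower with Dox and Etv3 stood higher, each with a counting interval that left out 0. Of the other 10 genes, 7 stood higher and 1 lower by the same measure, and the intervals of Etv5 and Elk1 held 0. Of all genes past 5 CPM, 26.9% had an interval above 0 and 23.8% one below 0. The summed RPKM of the repressors was 84.7 without Dox and 77.0 with Dox. That of the other 10 genes was 610 and 820.2, of which Ets1 alone gave 305 and 445. With 1 library per group the difference between the repressors and the other genes was not tested.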
